A study of Mus musculus with 44 samples.

Results

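The peaks described here are the m6A peaks on the minus strand of the genome in mouse liver. They were taken as all peaks whose strand was given as minus in the 4 peak lists called against immunoglobulin. There were 511 of them among the 11985 peaks of those lists and the 17573 peaks of all 8 lists of the study. The control list held 78, the Aroclor1260 list 101, the PCB126 list 184 and the list of the combined exposure 148. They belonged to 157 Ensembl gene identifiers, against 1315 identifiers with plus-strand peaks. The strand was the only criterion, so fold enrichment, overlap, sharing and position are measured properties of these peaks.

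The study used inbred male C57Bl/6J mice, whose livers were taken, on a high-fat diet that supplied 42% of its energy as fat. All 4 groups shared this diet and differed in 1 oral exposure at week 2 of a 12-week study: vehicle control, Aroclor1260, PCB126, or Aroclor1260 together with PCB126. Aroclor1260 was sold as a blend of heavily chlorinated biphenyls, and PCB126 is a dioxin-like biphenyl that activates the aryl hydrocarbon receptor; the sources used here give no doses. Of 44 libraries, each treatment had 5 inputs, 5 m6A immunoprecipitates and 1 immunoprecipitate with control immunoglobulin. The animals of a treatment were merged into 1 peak list per reference, so no value has a replicate error, no test across animals was possible, and the reads behind a list are unknown. Intervals are 95% intervals for counting error only, and peaks of the same gene are not independent. The tissue label was checked with marker genes: of 7 hepatocyte markers, 3 had plus-strand peaks in each of the control, Aroclor1260 and PCB126 lists and 4 in the combination list. Markers of other cell types also had plus-strand peaks, counted in the same order of lists: 0, 1, 1 and 1 of 6 endothelial markers, 1, 1, 0 and 1 of 6 macrophage markers, 1, 0, 1 and 1 of 6 stellate markers and 0, 0, 1 and 0 of 5 cholangiocyte markers. None of 6 lymphocyte markers had a peak on either strand in any of the 4 lists. In bulk liver, fewer cells of a type and less RNA per cell cannot be told apart.

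N6-methyladenosine is written into messenger RNA by the METTL3 and METTL14 methyltransferase complex, removed by demethylases such as ALKBH5 and read by YTH-domain proteins that alter decay, splicing and translation. In the MeRIP assay, RNA fragments are pulled down with an antibody to the mark, and a peak is a stretch of transcript with more fragments in the pull-down than in a reference. Genes lie on both strands of a chromosome, and an antisense transcript is one read from the strand opposite a known gene, often across part of its exons. Many liver genes are neighbours or hosts of such transcripts. A library that keeps no strand information gives the same reads for both, and the sources used here do not state whether strand was used in counting. Reads of a gene and of its opposite-strand partner therefore cannot be told apart in these lists.

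Some minus-strand peaks shared bases with the start window of a RefSeq gene, which runs from 250 bases before to 50 after its start. As examples, 4 of these windows are printed, each touched by minus-strand peaks in 3 or 4 lists. Each sequence is the 300 bases of a window, from RefSeq on GRCm38.p6, written 5′ to 3′ along the minus strand. Capitals mark the bases inside the minus-strand peak of 1 list. Hand2os1 is the divergent noncoding neighbour of Hand2. Commd1 encodes a copper-handling protein and carries the opposed gene Zrsr1 within it. 1700101I11Rik starts opposite the first part of Gabarapl1. Npr2 is a plus-strand gene, so its window is shown as the reverse complement.
Hand2os1 start window, chr8:57320810-57321109, minus strand: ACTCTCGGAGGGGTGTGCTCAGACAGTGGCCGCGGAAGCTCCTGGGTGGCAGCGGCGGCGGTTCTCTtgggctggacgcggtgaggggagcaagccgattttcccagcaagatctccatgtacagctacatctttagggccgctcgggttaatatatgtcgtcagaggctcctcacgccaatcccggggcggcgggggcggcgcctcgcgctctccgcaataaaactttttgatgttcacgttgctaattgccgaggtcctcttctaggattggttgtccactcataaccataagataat
Commd1 start window, chr11:22972817-22973116, minus strand: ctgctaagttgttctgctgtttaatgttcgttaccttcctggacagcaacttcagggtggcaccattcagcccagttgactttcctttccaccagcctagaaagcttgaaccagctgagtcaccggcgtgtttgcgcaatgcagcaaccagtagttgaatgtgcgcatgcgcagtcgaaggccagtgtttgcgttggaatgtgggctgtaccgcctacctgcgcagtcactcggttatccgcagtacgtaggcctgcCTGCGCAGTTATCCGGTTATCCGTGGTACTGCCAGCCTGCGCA
1700101I11Rik start window, chr6:129533235-129533534, minus strand: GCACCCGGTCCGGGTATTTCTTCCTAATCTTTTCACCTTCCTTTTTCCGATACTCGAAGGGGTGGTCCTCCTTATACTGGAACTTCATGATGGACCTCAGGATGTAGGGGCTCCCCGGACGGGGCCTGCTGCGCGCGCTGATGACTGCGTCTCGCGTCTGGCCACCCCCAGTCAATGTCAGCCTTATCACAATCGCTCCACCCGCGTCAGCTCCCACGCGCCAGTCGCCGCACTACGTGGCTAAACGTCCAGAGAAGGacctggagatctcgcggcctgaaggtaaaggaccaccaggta
Npr2 start window, chr4:43631685-43631984, minus strand: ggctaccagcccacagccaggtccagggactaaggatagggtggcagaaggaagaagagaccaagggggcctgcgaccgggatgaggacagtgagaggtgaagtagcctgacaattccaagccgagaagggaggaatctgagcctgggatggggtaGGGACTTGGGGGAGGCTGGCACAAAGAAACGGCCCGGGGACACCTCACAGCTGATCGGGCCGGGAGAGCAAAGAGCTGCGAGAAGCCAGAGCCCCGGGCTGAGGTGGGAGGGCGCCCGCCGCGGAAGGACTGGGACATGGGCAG
The capitals cover 67 bases at Hand2os1, 43 at Commd1, 258 at 1700101I11Rik and 144 at Npr2. At Hand2os1 and Npr2 they all lie upstream of the annotated start, at Commd1 they all lie after it, and at 1700101I11Rik they run across it. The first 3 windows were touched by peaks in all 4 lists, and the Npr2 window in all but the Aroclor1260 list. The peaks at Npr2 differed in place between lists. They lay at chr4:43631635-43631732 in control, chr4:43631828-43641340 after PCB126 and chr4:43631684-43631828 after the combination. The control and PCB126 spans do not overlap, and the capitals mark the combination peak. The letters GGACT, the commonest form of the m6A consensus, were searched on both strands. They occurred 3 times on the minus strand of the Npr2 window, and 2 of these lay inside the peak of the combination list. Neither strand of the other 3 windows held them. Of all 32851 windows of this length in the RefSeq table, 45.5% held GGACT on at least 1 strand, and 9 of the 24 windows touched by a minus-strand peak did so.

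Minus-strand peaks were a small share of every list, and far below the share of genes on that strand. They made up 3.73% of the control list (interval 3.00 to 4.63), 4.85% of the Aroclor1260 list, 4.46% of the PCB126 list and 4.02% of the combination list. In the RefSeq table of the same build, 49.8% of the 27025 genes with a stated strand lie on the minus strand. The sources used here do not state the annotation and strand settings behind the lists, and their part in this share was not tested. Minus-strand identifiers also carried fewer peaks each, with 1.35 to 1.66 peaks per identifier across the 4 lists against 3.51 to 3.76 on the plus strand. Counted by identifier, the minus share was therefore larger, at 9.25%, 10.5%, 9.58% and 9.19% in the same order. Of the 157 identifiers, 56 had 1 peak in all, and 7 had 10 or more and together held 89 of the 511 peaks.

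Fold enrichment, the authors' ratio of pull-down over reference for each peak, had a median of 3.00 on the minus strand and 2.7 on the plus strand of the control list. The corresponding medians were 3.00 and 2.6 after Aroclor1260, 3.4 and 3.27 after PCB126, and 3.02 and 3.2 after the combination. Taking only the strongest peak of each identifier turned this order round in 3 lists and put the plus strand higher in every one, at 3.17 against 4.6, 3.2 against 4.2, 4.2 against 6.08 and 3.44 against 5.4. The strongest is picked from more peaks per identifier on the plus strand, as given above, which by construction favours a higher value there. The part of this in the order was not tested. A fold of 2 or more was reached by 73.1% of the minus-strand control peaks, against 72.7% of all peaks in that list. It was reached by 84.2% after Aroclor1260, where all peaks gave 73.1%, by 88.6% after PCB126, where they gave 84.1%, and by 83.8% after the combination, where they gave 81.9%. Minus-strand peaks were also shorter, with median exonic lengths of 149 to 188 bp across the lists against 196 to 199 bp for plus-strand peaks.

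A large share of minus-strand peaks lay on top of a plus-strand peak of the same list. In the control list, 41 of 78 overlapped one by at least 1 bp, or 52.6% (41.6 to 63.3), where 5.36% of all peaks in that list overlapped a peak of the other strand. After Aroclor1260 it was 39 of 101, or 38.6% (29.7 to 48.4), against 5.14% of all peaks. After PCB126 it was 76 of 184, or 41.3% (34.4 to 48.5), against 4.55%, and after the combination 65 of 148, or 43.9% (36.2 to 52.0), against 4.59%. Seen from the other strand, 2.84% to 3.53% of plus-strand peaks overlapped a minus-strand peak. Requiring exonic blocks to overlap changed 1 peak, in the PCB126 list. Against input the shares of the 4 lists, in the same order, were 31.4%, 23.9%, 42.7% and 37.1%. Requiring each peak to cover at least 50% of the other lowered the shares to 25.6%, 16.8%, 21.7% and 20.9%.

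**Figure D1:**
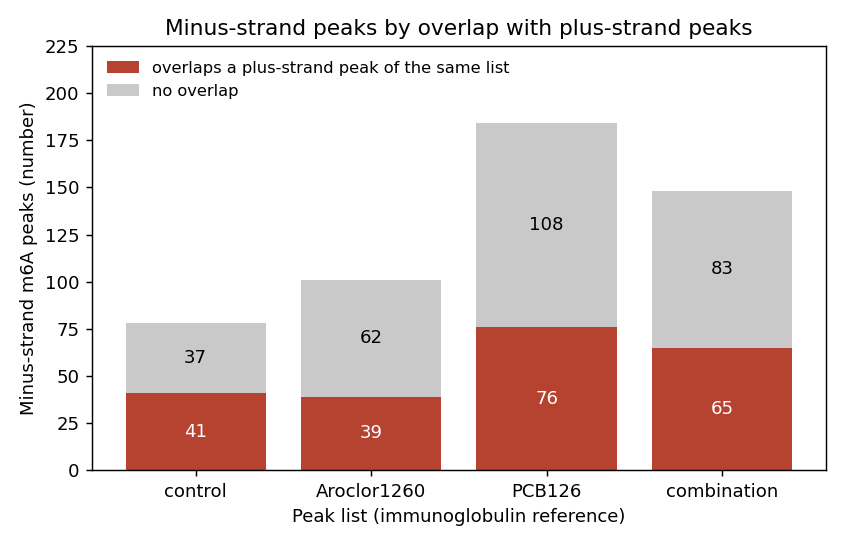
Number of minus-strand peaks in each of the 4 lists, split into those that overlap a plus-strand peak of the same list (red, 41, 39, 76 and 65) and those that do not (grey, 37, 62, 108 and 83). The Aroclor1260 bar is taller than the control bar although its list is shorter, with 2082 peaks against 2091. The overlapping part is between 38.6% and 52.6% of each bar.

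The overlaps formed 370 peak pairs between 75 minus-strand and 83 plus-strand identifiers, or 86 pairs of identifiers. Of these, 23 pairs were present in all 4 lists, 11 in 3, 20 in 2 and 32 in 1. In 63 pairs both identifiers were placed under the same name. An identifier with no RefSeq gene stated on its own strand took the name of another gene at that place. A shared name therefore does not make the identifiers of a pair 1 gene. In no peak pair were the 2 spans identical. For the 287 peak pairs that shared exonic bases, the ratio of minus-strand to plus-strand fold had a median of 0.988 and quartiles of 0.756 and 1.18. The minus-strand peak was the weaker in 145 of them, the stronger in 127 and equal in 15. Across these 287 pairs the log2 folds of both strands had a Pearson r of 0.73 and a Spearman rho of 0.73. The pairs share libraries, and several pairs share a peak or an identifier, so this is a description. The 9 Ugt1a identifiers on the plus strand, which are overlapping units of the glucuronosyltransferase cluster and share sequence, all paired with 1 minus-strand identifier and count as 9 pairs.

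**Figure D2:**
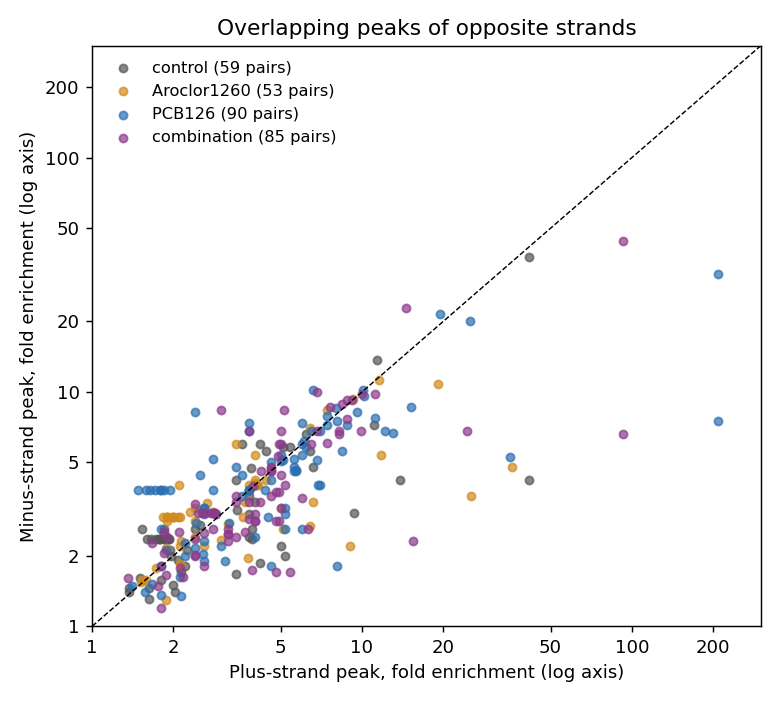
Fold enrichment of the minus-strand peak against that of the plus-strand peak for each of the 287 overlapping pairs with shared exonic bases, on log axes, coloured by list (59, 53, 90 and 85 pairs). The dashed line marks equal folds; most pairs lie close to it, and the points far below it at the right include Jund and Cebpb.

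The strongest minus-strand peaks of all lay at Jund, a single-exon gene whose product forms AP-1 transcription factors, under the identifier ENSMUSG00000080058. In the control list this identifier had 1 peak at chr8:70699735-70700080 with a fold of 37.8 and another, nearer the start of Jund, with a fold of 4.2. The same 346-bp peak had a fold of 44.1 after the combination, and a longer one of 494 bp ending at the same base had 31.8 after PCB126. After Aroclor1260 only the weaker peak was listed, with a fold of 4.8. With input as the reference, however, the Aroclor1260 list gave this identifier a fold of 22.1, beside 26.7, 47.1 and 32.9 in the control, PCB126 and combination lists, so the gap after Aroclor1260 was not seen with that reference. Every one of these 7 minus-strand peaks lay within the plus-strand peak of Jund, whose folds were 41.5, 36, 208 and 92.4 in the control, Aroclor1260, PCB126 and combination lists. The minus-strand peak was thus close to its partner in the control list and well below it after PCB126.

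**Figure D3:**
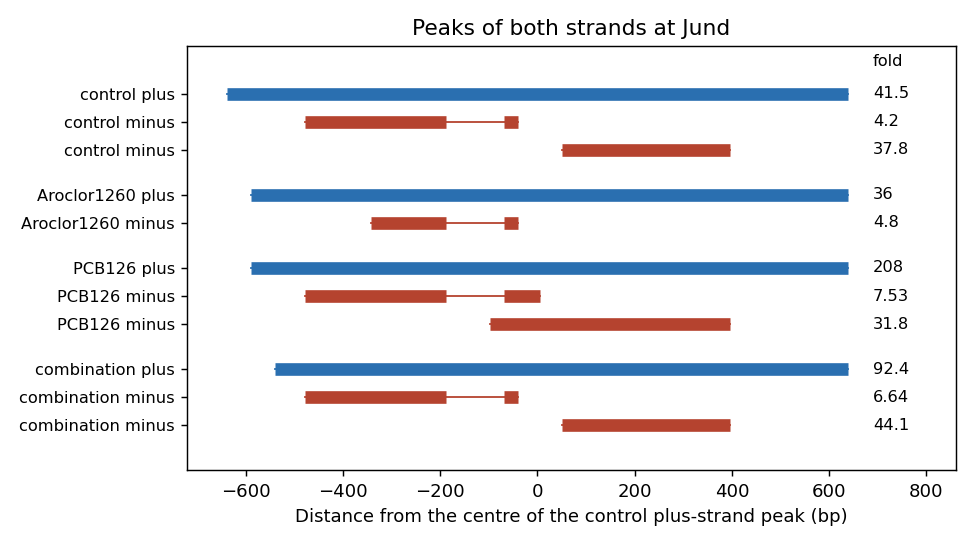
Peaks at Jund in each list, drawn to scale by distance in bp from the centre of the control plus-strand peak; thick bars are exonic blocks, thin lines join blocks of 1 peak, blue is the plus strand and red the minus strand, with the fold at the right. The minus-strand peak right of the centre, with folds of 37.8, 31.8 and 44.1, is absent from the Aroclor1260 list.

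Apoa5, a plasma apolipoprotein that raises triglyceride clearance, had the next strongest. Its minus-strand identifier had the same 2 peaks in all 4 lists, at chr9:46270083-46271127 and chr9:46271222-46271365, each overlapping a peak of Apoa5. The first had folds of 13.7 in control and 9.3, 21.5 and 22.8 in the Aroclor1260, PCB126 and combination lists, and the overlapping Apoa5 peak had 11.4, 9.26, 19.4 and 14.5. The minus-strand peak was the higher of the pair in each list. Neighbouring Apoa4, another apolipoprotein of triglyceride-rich particles, had 2 minus-strand identifiers with weaker peaks. One appeared in the control and Aroclor1260 lists with strongest folds of 1.46 and 2.8, and the other in the combination list alone with 2.47. Against input the former had no peak in any list. The latter had a peak in control, at 1.51, as well as after the combination, at 2.33.

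Transcription factors and their neighbours made up several further pairs. At Hand2, a basic helix-loop-helix factor of heart and limb development, the minus-strand peak began at chr8:57321043 in every list, inside the Hand2os1 window printed above. Its folds were 4.8, 11.2, 10.2 and 7.7 listed from control through Aroclor1260 and PCB126 to the combination, and those of the overlapping Hand2 peak were 6.6, 11.6, 6.6 and 8.8. At Cebpb, a liver-enriched bZIP factor of the acute-phase response, the minus-strand peak had the same 248-bp span in all 4 lists. Its folds were 3.04, 3.58, 5.26 and 3.52, while the Cebpb peak over it had 9.31, 25.3, 35.3 and 5.97, so this pair was unequal in every list. At Foxo1, which drives gluconeogenic genes in fasting, the strongest minus-strand folds were 2, 3.07, 7.5 and 2.47, and the identifier had 2 peaks in each list, all overlapping plus-strand peaks; against input it had peaks in the PCB126 list alone, with a strongest fold of 2.85. Bmyc, a Myc family member, had 2.7, 4.2, 9.6 and 9.8 on the minus strand beside 2.5, 4, 10.2 and 10 on the plus strand. Tshz2, a zinc-finger homeobox factor, carried 15 minus-strand peaks; those of the control and Aroclor1260 lists overlapped no plus-strand peak, and 3 of 5 after PCB126 and 4 of 4 after the combination did.

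Pairs whose identifiers were placed under different names were fewer. Commd1 lies on the minus strand around the imprinted splicing-factor gene Zrsr1. The Commd1 peak at chr11:22972699-22973939 in control had a fold of 4.2, and the strongest folds in the exposed lists were 3.4, 8.6 and 6.8. Those of Zrsr1 were higher in every list, at 13.8, 6.6, 15.2 and 24.6. The noncoding gene Gm12992 lies opposite Srsf4, a serine/arginine-rich splicing factor, and had 5.8, 6, 8.55 and 10 beside 5.4, 11.8, 13 and 8.4. ENSMUSG00000099568, which RefSeq genes covered by less than 80%, overlapped the peak of Rgs16, a regulator of G-protein signalling. It had 7.2, 10.8 and 20 in the control, Aroclor1260 and PCB126 lists beside 11.1, 19.2 and 25.2 at Rgs16, and no peak in the combination list. Against input it had a peak in all 4 lists, with a fold of 6.04 in the combination list. Angptl6, a secreted angiopoietin-like protein, overlapped the antiviral gene Shfl in each of the exposed lists, with minus-strand folds of 2.6, 7.2 and 2.6 beside 5.1, 8.8 and 6.33. Sphk2, a sphingosine kinase, overlapped the circadian factor Dbp after Aroclor1260 alone, with 2.2 beside 2.6. Against input Sphk2 had no minus-strand peak in any list.

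By RefSeq position, 53 of the 157 identifiers lay at a gene stated to be on the minus strand. Only plus-strand genes held at least 80% of the exonic peak bases for 67 of the 157 identifiers, or 42.7%. Another 28 lay where genes of both strands did so, and 25 where a minus-strand gene did and no stated plus-strand gene did. In 29 cases at least 1 gene had no strand in the table, so whether a minus-strand gene lay there cannot be told. The other 8 lay in no gene to that extent. The classes differed in overlap: 59.9% (53.1 to 66.3) of the 207 peaks at plus-strand genes only overlapped a plus-strand peak of their list. At minus-strand genes 15.9% (9.51 to 25.3) of 82 peaks did, a difference of 44.0 points (32.4 to 53.1). The classes were set by the strand of annotated genes, and each plus-strand peak belongs to a plus-strand identifier. Part of this difference therefore follows from how the classes were made. Some places in the minus-strand class, such as Angptl6, Gm16537 and Bud23, also held a gene of no stated strand and had overlapping peaks. Where genes of both strands were annotated, 41.3% of 75 peaks overlapped. Median folds of the classes were close to each other, at 3.3 for minus-strand genes, 3.2 for genes of both strands and 3.04 for plus-strand genes only.

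Genes of secreted liver proteins were among the places of minus-strand peaks. Of 28 plasma protein genes listed for this tissue, the number with a minus-strand peak at their place was 3 in the control list, then 5, 6 and 4 in the Aroclor1260, PCB126 and combination lists; with a plus-strand peak it was 9, 7, 7 and 9. Of all 49980 RefSeq genes, many of them silent in liver, 0.164%, 0.172%, 0.292% and 0.254% had a minus-strand peak at their place in these lists. Apoe, the ligand for lipoprotein receptors, had peaks in all 4 lists, with strongest folds of 3.47, 4.08, 9.48 and 6.15, the strongest at chr7:19696308-19697153 after PCB126. Hp, the haemoglobin scavenger haptoglobin, had 2, 3, 3 and 2 peaks with strongest folds of 7, 4.6, 5.55 and 9.8. Both genes thus had peaks in every list, also against input, and no plus-strand peak of these lists overlapped them; the RefSeq table used here gives a strand for Apoe but not for Hp. The third place in the control count was that of Fgg, the fibrinogen gamma chain and a plus-strand gene, where 1 minus-strand peak with a fold of 1.4 overlapped a plus-strand peak, with none in the other lists or against input. Fgb, the fibrinogen beta chain, had no control peak, and its strongest folds in the exposed lists were 4.2, 10.2 and 4.8. Against input Fgb had peaks after PCB126 and after the combination, with strongest folds of 4.1 and 2.46, and none after Aroclor1260. Ambp, the precursor of alpha-1-microglobulin and bikunin, had 2 peaks after Aroclor1260 and 2 after PCB126, with strongest folds of 3.7 and 6.8, and none in the other lists. C3, the central complement protein, had 5 peaks after PCB126 alone, with a strongest fold of 4. Neither Ambp nor C3 had a minus-strand peak against input in any list, so these patterns were seen with 1 reference only. Rbp4, the retinol carrier and no member of the list, had strongest folds of 4.2 after PCB126 and 2 after the combination alone; against input it had 1 peak, with 2.75, after the combination. Trf, the iron carrier transferrin, has no strand in the RefSeq table. It carried 2 minus-strand identifiers whose peaks overlapped each other in all 3 exposed lists, with 2, 5 and 3 peaks each, so its 20 peaks count the same place repeatedly. Against input 1 of the 2 identifiers had 5 peaks after the combination, with a strongest fold of 3.5, and the other had none in any list. No other minus-strand identifiers overlapped each other within a list.

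Enzymes and signalling genes followed several patterns. Scd1, the desaturase that makes monounsaturated fatty acids, had the most minus-strand peaks of any identifier, 23, with 7, 9 and 7 in the exposed lists and none in control. Its strongest folds were 8.7, 6.6 and 5.2, and the peak at chr19:44406685-44407559 was called with the same span in all 3 exposed lists. Against input, Scd1 had 9 peaks after the combination and none in the other lists, so its presence after Aroclor1260 and after PCB126 was not seen with that reference. Aldh2, the mitochondrial aldehyde dehydrogenase, had 3 peaks after PCB126 and 2 after the combination, with strongest folds of 9.2 and 6.4. Jun, a partner of Jund in AP-1, had 4 and 3 peaks in the same 2 lists, with 7.6 and 6.4. Against input, both Aldh2 and Jun again had peaks in those 2 lists alone. G0s2, an inhibitor of the lipase ATGL, had 2 peaks after PCB126 alone, with a strongest fold of 3.00, and against input 1 peak of 2.4 in the same list. Paqr3, a Golgi-anchored signalling regulator, and Hdc, the histamine-forming decarboxylase, had peaks in all 4 lists with strongest folds of 4.6 to 7.8 and 4.6 to 7.3, and no plus-strand peak overlapped them.

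Malat1, an abundant nuclear noncoding RNA, had minus-strand peaks in every list but that of Aroclor1260, with strongest folds of 3.6 in control, 4.8 after PCB126 and 4 after the combination. Among 20 listed long noncoding RNAs it was the only one with a minus-strand peak. ND6, which encodes a subunit of respiratory complex I and is the only protein gene read from the opposite strand of the mitochondrial genome to the rest, had 1 peak in each of the PCB126 and combination lists, with folds of 2.33 and 3.98. No mitochondrial gene listed as read from the other strand had a minus-strand peak, while 3, 1, 3 and 6 of 14 had plus-strand peaks.

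The other listed pathways are given as counts beside the shares of 0.164% to 0.292% over all RefSeq genes; at such shares a list of this size would hold few or no peaks, so an empty list says nothing particular about its genes. None of the 25 genes of the m6A machinery had one in any of the 4 lists, while 3, 2, 3 and 3 had plus-strand peaks. None of the hepatocyte, endothelial, macrophage, stellate, cholangiocyte or lymphocyte markers did either, nor any of 18 bile acid and sterol genes. Of 10 aryl hydrocarbon receptor targets, the Ugt1a6a place alone had one, in all 4 lists, with strongest folds of 2.35, 2.92, 3.83 and 3.03 at an identifier that spans several Ugt1a genes, and against input it had none after Aroclor1260. Of 16 immediate early and AP-1 genes, Jund had one in all 4 lists and Jun in 2. Of 16 glucose and insulin genes, the places of Foxo1 and Txnip had one; Txnip, an inhibitor of thioredoxin, had 1.85, 1.49 and 1.65 in the exposed lists and no peak against input. Of 18 fatty acid oxidation genes, the place of Slc27a2, a fatty acid transporter, had one in all but the Aroclor1260 list, with folds of at most 2.34. Against input that place had peaks in control, at 1.15, and after Aroclor1260, at 1.34, and none in the PCB126 and combination lists, so its pattern across treatments differed between the references.

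**Figure D4:**
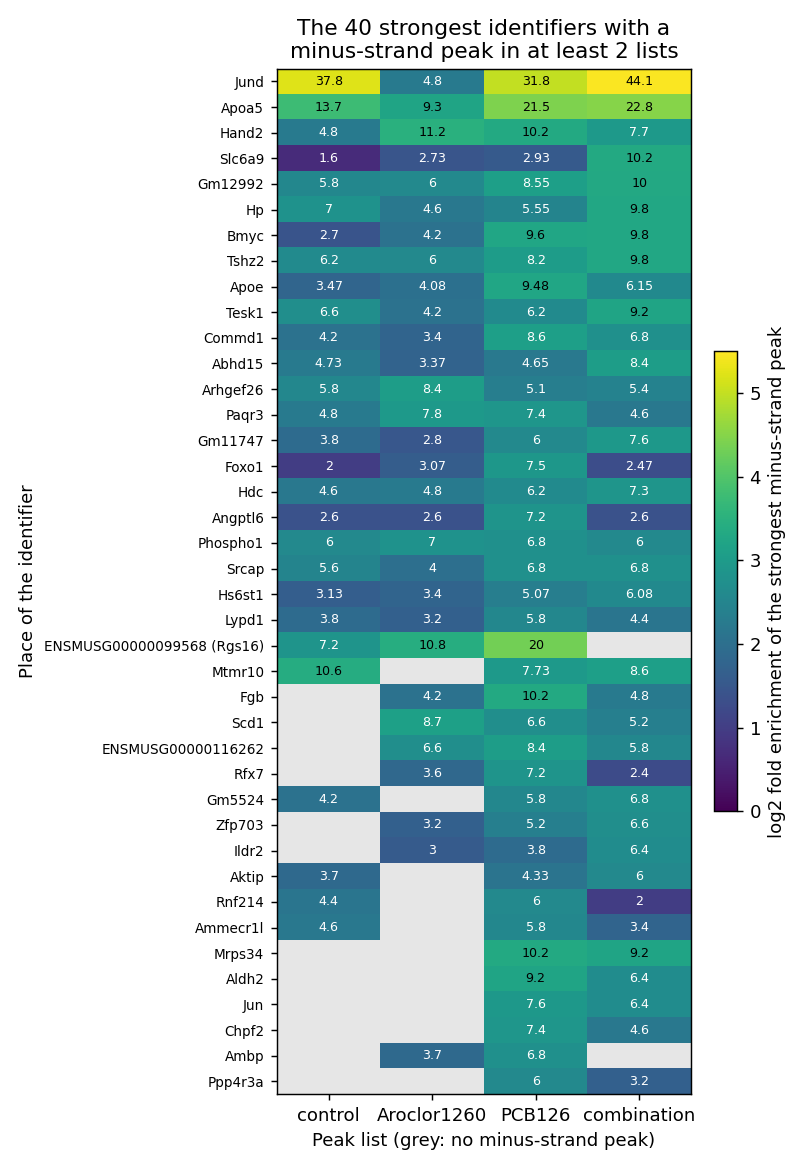
Strongest minus-strand fold in each list for the 40 identifiers with the highest folds among those with a peak in at least 2 lists, coloured by log2 fold and labelled with the fold; grey cells have no minus-strand peak. Rows are ordered by the number of lists with a peak, from Jund and Apoa5 in all 4 lists to places such as Mrps34, Aldh2 and Jun in 2.

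Sharing between treatments was described by setting each exposed list against the control list, and all 3 comparisons use the same 1 control list. Of the 78 minus-strand control peaks, 53 overlapped a minus-strand peak of the Aroclor1260 list, or 67.9% (57.0 to 77.3); over both strands the share was 56.8%. In the PCB126 list 63 were found, or 80.8% (70.7 to 88.0), where both strands gave 79.4%. In the combination list 50 were found, or 64.1% (53.0 to 73.9), where both strands gave 74.6%. Set against plus-strand peaks alone, the minus-strand share was 11.6 points higher after Aroclor1260 (0.368 to 21.1), 1.43 points higher after PCB126 (-8.81 to 8.88) and 10.9 points lower after the combination (0.967 to 22.1 lower). When each list was cut to its 2082 strongest peaks, 64.1% were found after PCB126 and 47.4% after the combination, so these shares moved with the length of the list.

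Conversely, 45 of 101 minus-strand peaks after Aroclor1260 had no counterpart in the control list, or 44.6%, against 41.1% of all peaks. After PCB126 it was 124 of 184, or 67.4%, against 64.2%, and after the combination 97 of 148, or 65.5%, against 59.7%. The intervals of the difference from plus-strand peaks included 0 in all 3 comparisons: 3.62 points (-5.95 to 13.6), 3.34 points (-3.89 to 9.87) and 6.13 points (-1.99 to 13.5). Peaks absent from control were also the weaker ones, with median folds of 2.4, 3.05 and 2.8 against 3.4, 5.18 and 4.4 for those with a control counterpart.

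By identifier, 26 minus-strand identifiers had a peak after Aroclor1260 and none in control, here called gained, and 18 had the reverse, here called lost. The gained ones were 39.4% of the 66 in that list, where both strands gave 30.4%, and the lost ones 31.0% of the 58 in control, where both strands gave 30%. After PCB126, 64 were gained, or 57.7% against 52.2% over both strands, and 11 lost, or 19% against 11.6%. After the combination, 56 were gained, or 58.3% against 48.1%, and 18 lost, or 31.0% against 13.6%. At equal list length the gained fell to 34 after PCB126 and 30 after the combination, and the lost rose to 21 and 28. Against input, 8 were gained after Aroclor1260, and 5 and 8 were lost after PCB126 and the combination. Of the gained, 4, 29 and 25 were gained against input as well, and of the lost, 3, 0 and 2 were lost against input as well. The 4 after Aroclor1260 were Zfp703, Ildr2, Anks1 and Bcl9l, and the 3 lost there were Pigf, Mtmr10 and Malat1.

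Strong gained identifiers after PCB126 included Mrps34 at 10.2, Fgb at 10.2 and Aldh2 at 9.2. Mrps34, a mitochondrial ribosomal protein, is the place of an opposite-strand pair, with minus-strand folds of 10.2 after PCB126 and 9.2 after the combination beside 10.1 and 9.2 on the plus strand. Zfp703, a zinc-finger transcriptional repressor, was gained in all 3 exposures with both references, with strongest folds of 3.2, 5.2 and 6.6. Ildr2, a lipid-related immunoglobulin-domain receptor, and Bcl9l, a Wnt co-activator, were gained likewise, with 3.00, 3.8 and 6.4 and with 2.1, 4.4 and 4.8. Among the lost, Mtmr10, a phosphatase-like protein, had a control fold of 10.6, no peak after Aroclor1260, and folds of 7.73 and 8.6 after PCB126 and the combination. Msl1, a scaffold of a histone acetyltransferase complex, had a fold of 8 in control and no peak in any exposed list, though against input it had none in any list. Foxq1, a forkhead factor, and Golph3, a Golgi trafficking protein, were absent after the combination with both references, with control folds of 1.87 and 1.58.

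Gained identifiers overlapped plus-strand peaks less often than identifiers shared with control did. Of the 26 gained after Aroclor1260, 5 had a peak overlapping a plus-strand peak of the same list, or 19.2%, against 25 of 40 shared ones, or 62.5%, a difference of 43.3 points (19 to 60.3). After PCB126 the shares were 29.7% of 64 and 70.2% of 47, a difference of 40.5 points (21.9 to 55.3). After the combination they were 35.7% of 56 and 62.5% of 40, a difference of 26.8 points (6.52 to 44.2). At the place of a gained peak, the control list held a plus-strand peak for 2, 3 and 4 identifiers in the same order. Peaks absent from control also had the lower folds given above, and the part of this in the difference was not tested.

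Over the 4 lists together, 30 identifiers, or 19.1% (13.7 to 26.0), had a minus-strand peak in every list, where 26.6% of identifiers of both strands did. Another 29 appeared in the PCB126 list alone, 27 in the combination list alone, 17 in those 2 lists alone, and 12 in all 3 exposed lists but not in control. Aroclor1260 alone accounted for 8 and control alone for 6. None of 157 appeared in just the Aroclor1260 and combination lists, which allows a share of up to 1.91% with 3 counts as the limit and 2.39% as the upper bound of the Wilson interval, and 1.67% of plus-strand identifiers did. By class, 8, 10, 22 and 16 of the 25 identifiers at minus-strand genes had a peak in the control, Aroclor1260, PCB126 and combination lists, and 26, 30, 44 and 44 of the 67 at plus-strand genes only.

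**Figure D5:**
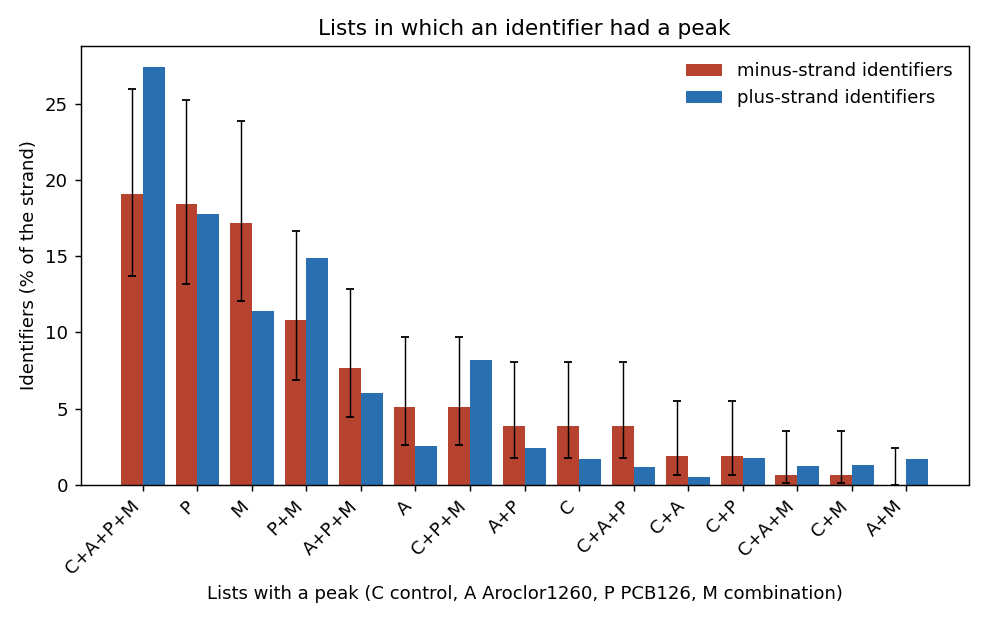
Share of identifiers, in percent of each strand, by the set of lists in which they had a peak; red is the minus strand (157 identifiers, with 95% Wilson intervals) and blue the plus strand (1315 identifiers). The commonest pattern is all 4 lists on both strands, with 19.1% of minus-strand and 27.5% of plus-strand identifiers.

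Minus-strand peaks were found again with the other reference more often than plus-strand peaks were. Of the 78 control peaks, 37 overlapped a minus-strand peak called against input, or 47.4%, against 23.5% of plus-strand peaks, a difference of 23.9 points (13.1 to 35.0). After Aroclor1260 the shares were 41.6% and 19.9%, a difference of 21.6 points (12.3 to 31.5). After PCB126 they were 56.5% and 46.5%, a difference of 9.98 points (2.59 to 17.1), and after the combination 64.9% and 52.4%, a difference of 12.5 points (4.33 to 19.9). All 4 intervals lay above 0. The input lists accordingly held larger minus-strand shares, 8.23%, 9.09%, 5.37% and 5.08%.

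Position along the gene was measured for the peaks that lay in a single RefSeq gene of their own strand, as the distance of the peak's centre from the 5′ end over the gene's length, introns included. That left 21, 27, 61 and 48 minus-strand peaks listed from control through Aroclor1260 and PCB126 to the combination. Their median positions were 0.888, 0.879, 0.611 and 0.804, and those of plus-strand peaks 0.786, 0.770, 0.784 and 0.798. After PCB126, 19 of the 61 minus-strand peaks, or 31.1% (20.9 to 43.6), fell in the first 20% of the gene, against 9.5% of plus-strand peaks, a difference of 21.7 points (11.4 to 34.1). After the combination it was 11 of 48, or 22.9%, against 9.63%, a difference of 13.3 points (3.61 to 26.9). In control and after Aroclor1260 the counts were 4 of 21 and 4 of 27, and the intervals of the difference included 0. The change between lists in these small counts was not tested.

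Minus-strand peaks also touched annotated start windows more often. Of the 511, 39 or 7.63% (5.63 to 10.3) shared at least 1 base with a 300-base start window of a RefSeq gene on either strand, against 2.28% of the 11474 plus-strand peaks, a difference of 5.35 points (3.33 to 7.99). The 24 windows touched lay at 20 identifiers, 13 of them windows of minus-strand genes and 11 windows of plus-strand genes. At Hand2 the peak folds were those given above; at 1700101I11Rik, opposite the autophagy gene Gabarapl1, they were 1.92, 1.57, 2.04 and 2.36. At Npr2, a natriuretic peptide receptor, they were 2.2 in control, 2.9 after PCB126 and 1.87 after the combination, with no peak after Aroclor1260.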

How the data were processed

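Liver m6A immunoprecipitates of 4 treatments were compared as peak lists. BWA 0.7.17, Trimmomatic, FastQC 0.10.1 and bcl2fastq 2.20.0.422 were named, with build mm10, per the submitters' processing notes. The authors deposited 8 lists titled as MeTPeak output, 1 per treatment and reference, merged over animals, and the sources used here do not state the caller's settings, annotation, strand handling or depth. Per the file headers, each peak has a fold enrichment, which is a linear ratio, a p-value, the log10 of the p-value and of the false discovery rate, and a number of blocks.

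The deposited folds were used as given, to rank and filter peaks within lists and to describe them. From the lists, peaks with strand minus were taken, and overlaps of at least 1 bp were computed with Python 3.11.15, pandas 2.3.3 and numpy 2.4.6, with overlap code tested on simulated data. Coordinates count from 1. Files give Ensembl identifiers without names, so an identifier was placed at the RefSeq genes of GRCm38.p6 holding 80% or more of the exonic bases of its peaks, on its own strand first. A name therefore states a place, not a transcript. Gene strand came from RefSeq's start windows. Shares have Wilson intervals and their differences Newcombe intervals, at 95%. No per-sample column was left unused, and with 1 list per treatment no test was made.

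Genes were named as the 5 strongest identifiers per list, the 10 strongest in all 4 lists, the 10 strongest opposite-strand pairs, the 5 strongest gained and lost per exposure, listed genes with a minus-strand peak, the 5 with most peaks and the 10 strongest without an overlap; 1 gene under this rule is not reported here, and other genes named were chosen after their values were seen. The members and gene lists were chosen with earlier results of these data known. Alternatives were the input reference, a fold of at least 2, a false discovery rate of at most 0.01, exonic or reciprocal overlap, counting by identifier and lists of equal length.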

Additional observations from a re-analysis of the deposited data

Results flagged for a closer look

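The lists called against input held 6 minus-strand identifiers with no minus-strand peak in any of the 4 lists called against immunoglobulin, which were the basis of the comparisons. They lay at Slc38a11, an amino acid transporter, Lpar6, a lysophosphatidic acid receptor, Gabpb2, Rpph1, the RNA of ribonuclease P, Herpud1 and Slc7a2. Their strongest folds ran from 1.22 at Slc7a2 to 2.3 at Slc38a11. Slc38a11 had a peak in the control and PCB126 lists, Slc7a2 in the control list alone, and the other 4 in the PCB126 list alone.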

How the results depend on the processing

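No paired analysis was possible because each list was called once per treatment with no value for single animals, and for the same reason no replicate could be left out. Of 92 recomputed values, 44 stayed within the interval of the reported share or median or within 1.5 times the reported count, and 48 moved. All 4 values at a false discovery rate of at most 0.01 and all 4 with exonic blocks were among those that stayed, as was the share at plus-strand genes only with a gene required to hold 50% or 100% of the bases, both chosen after seeing the data. With control first, then Aroclor1260, PCB126 and the combination, the minus share of a list was 8.23%, 9.09%, 5.37% and 5.08% against input and 9.25%, 10.5%, 9.58% and 9.19% by identifier. The share overlapping a plus-strand peak was 31.4%, 23.9%, 42.7% and 37.1% against input, and with reciprocal overlap of 50% it was 25.6%, 16.8%, 21.7% and 20.9%. Control peaks found in the exposed lists were 44.9%, 47.4% and 37.2% with reciprocal overlap, 64.1% after PCB126 and 47.4% after the combination at equal length, and 78.4% after the combination against input. Exposed peaks absent from control were 65.3%, 79.9% and 80.4% with reciprocal overlap, 32.6% after Aroclor1260 against input, and after PCB126 57.7% by identifier and 55% at equal length. Gained identifiers were 8 after Aroclor1260 against input, and 34 after PCB126 and 30 after the combination at equal length. Lost identifiers after PCB126 were 5 against input, 6 at a fold of at least 2 and 21 at equal length, and after the combination 8, 10 and 28. Against input the median folds of minus-strand peaks were 2, 2.06, 2.85 and 2.6, and of plus-strand peaks 2.37, 2.18, 2.44 and 2.4. By identifier the minus-strand median after PCB126 was 4.2, and the plus-strand medians were 4.6, 4.2, 6.08 and 5.4. Equal length keeps fewer peaks and identifier counts merge peaks, by construction; the cause of the other shifts was not tested. Depth is unknown, so a missing peak is not shown to be an absent mark.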

Other observations

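Minus-strand peaks were spread unevenly over chromosomes. They made up 9.09% (7.02 to 11.7) of the peaks on chromosome 4, where Jun, Tesk1 and Ambp lie, and 8.12% (6.43 to 10.2) on chromosome 9, the place of Apoa5, Apoa4 and Trf. On chromosome 14 they made up 0.532% (0.146 to 1.92), which is 2 of 376 peaks, and on chromosome X 1 of 169. Neighbouring peaks of a gene count separately in these shares, as the 20 peaks at Trf show.

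The minus-strand peaks at 2 places covered microRNA hairpins of the plus strand. At Chpf2, a chondroitin-polymerizing factor, the minus-strand peaks of the PCB126 and combination lists covered 98 bases of the Mir671 hairpin, and their strongest folds were 7.4 and 4.6. At Glul, the glutamine synthetase gene of pericentral hepatocytes, the Aroclor1260 peak with a fold of 1.55 covered 57 bases of the Mir8114 hairpin. Against input the Glul identifier had a peak in control, with a fold of 1.2, and none after Aroclor1260.

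At Adh1, an alcohol dehydrogenase, and Mt2, a metallothionein, minus-strand identifiers lay opposite plus-strand genes without overlapping a plus-strand peak. Adh1 had 3 peaks in the combination list alone, with a strongest fold of 4.4, and no peak against input in any list. Mt2 had 2 peaks after PCB126 and 2 after the combination, with strongest folds of 2.8 and 3.4. Against input Mt2 had 1 peak, with a fold of 1.75, after the combination alone.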
